A study of Mus musculus with 2 samples.

Results

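The inflammatory cytokines and NF-kB response genes described here were 10 genes listed by name: Nfkbia, Tnf, Tnfsf18, Il1a, Il1b, Ccl2, Ccl3, Ccl4, Gdf15 and Dusp2. Each matched exactly 1 of the 32285 genes counted in both libraries. They were chosen with results of these data in view, and which measured values they were chosen by is not recorded, so their levels are given as a description. The 10 genes were followed over brain macrophages, meaning cells high in the complement C1q genes, and over cells of the oligodendrocyte lineage.

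The data were single-cell RNA counts. The source was C57BL/6J mice killed on postnatal day 8, whose cortex and corpus callosum were dissociated with papain, and cells were pulled down with magnetic beads against PDGFRα and O4, which mark the oligodendrocyte lineage. All pups, of both groups, were injected on day 0 with pAAV-hSyn-DIO-hM4D(Gi)-mCherry, a virus whose inhibitory designer receptor (DREADD) is driven by a neuronal promoter and needs Cre recombinase, and all took clozapine-N-oxide (CNO) by mouth 2 times daily from day 2 to day 8. The WT-CNO library pooled 2 wild-type pups. The DREADD-CNO library pooled 3 NexCre+/- pups, which carry Cre at Neurod6 (Neurod6tm1(cre)Kan), a gene of excitatory cortical neurons, so the receptor was aimed at neurons. With 1 library per group, the effects of genotype, of silencing, of the pups and of the library cannot be told apart, and no test between the libraries exists. Intervals below are 95% intervals of counting error only.

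NF-kB transcription factors are held inactive in the cytoplasm by inhibitor proteins of the IkB family. Signals from Toll-like, IL-1 and TNF receptors activate a kinase complex that marks these inhibitors for destruction, and the freed factors enter the nucleus and switch on cytokine and chemokine genes together with Nfkbia, the gene of the inhibitor IkBα, which closes a negative feedback loop. In the brain the best known sources of these cytokines are microglia, the macrophages of the tissue itself, and the border macrophages of the meninges and perivascular spaces, and cell dissociation is known to switch on several of the same genes.

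The stretches just before the transcription start were searched for the kappaB consensus, the letters that NF-kB factors are known to bind. They were also searched for other short motifs, named below, which are not NF-kB sites. RefSeq promoters on GRCm38.p6, the build of that sequence table, matched 8 of the 10 genes, all but Ccl2 and Ccl4. The capitals below mark a match to the kappaB consensus in Nfkbia, TATAAA in the 4 cytokine genes, and TGACTCA, the letters known for AP-1 factors, in Il1a. Each line ends at the last base before the start and is shown because these are the members whose promoter held a match.
Nfkbia, chr12:55492648-55492747, minus strand: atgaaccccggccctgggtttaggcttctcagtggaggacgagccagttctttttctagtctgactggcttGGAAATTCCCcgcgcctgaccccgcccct
Tnf, chr17:35202008-35202067, minus strand: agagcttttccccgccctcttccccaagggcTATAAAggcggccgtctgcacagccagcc
Il1a, chr2:129309973-129310032, minus strand: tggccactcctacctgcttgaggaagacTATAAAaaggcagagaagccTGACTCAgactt
Il1b, chr2:129371140-129371199, minus strand: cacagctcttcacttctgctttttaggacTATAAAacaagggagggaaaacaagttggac
Tnfsf18, chr1:161494597-161494656, plus strand: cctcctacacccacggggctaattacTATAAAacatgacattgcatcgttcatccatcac
Within the 250 bases before the start, on both strands, the kappaB consensus was found in 1 of the 8 members with an entry, Nfkbia, at bases 29 to 20 before the start, and in 7.25% of all 32851 promoters. TATAAA on the gene's own strand was found in 4 members, beginning 29 to 34 bases before the start, and in 7.59% of promoters. TGACTCA on either strand was found in Il1a, 12 to 6 bases before the start, and in 4.46% of promoters. TGACGTCA, the letters known for CREB and ATF factors, was found in no member and in 1.55% of promoters. These matches describe the letters in this window and nothing about binding.

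The libraries held 6252 and 6754 barcodes (WT-CNO first, here and below) with 78794300 and 108912581 UMIs, the counts of distinct RNA molecules. Barcodes with at least 500 genes and at most 10% mitochondrial UMIs numbered 4272 and 4986, with medians of 12101.5 and 17627 UMIs. Of the kept barcode sequences, 6 occurred in both libraries. Cells with Xist UMIs and no Y-linked UMIs made up 68.5% and 14.6% of the microglia-side cells defined next, and cells with Y-linked and no Xist UMIs 8.48% and 57.7%, so the libraries also differed in the sex of the cells.

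C1q-high cells, with at least 20 UMIs of C1qa, C1qb and C1qc per 10000 and fewer than 10 of Olig1, Olig2 and Sox10, numbered 444 and 410. Only 10 and 12 of them lay between 20 and 30 per 10000, and 30 and 31 other barcodes between 10 and 20. Cells with more P2ry12 and Tmem119 than Pf4 and Mrc1 UMIs are called microglia-side and numbered 165 and 130, with median depths of 19657 and 20293.5 UMIs. The reverse defined 236 and 249 macrophage-side cells, and 43 and 31 cells were tied. In 49 and 44 split cells the gate was decided by 1 or 2 UMIs.

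On the microglia side all 10 microglia markers were detected, with a summed level of 19154 and 17774 CPM (UMIs per 1000000 UMIs of the class). The 8 border macrophage markers summed to 648 and 666 CPM there. C1qa, C1qb, C1qc, P2ry12 and Tmem119 of the 10 and Pf4 and Mrc1 of the 8 were the genes of the gate itself. The macrophage side was not 1 cell type. Lyve1, a gene of border macrophages, had a UMI in 126 and 177 of its 236 and 249 cells and none in the rest. Lyve1-rich cells, 126 and 176 in number, were those of them that also had more UMIs of border macrophage genes (Lyve1, Cd163, F13a1, Ms4a7, Cbr2 and Stab1) than of the microglia genes Cx3cr1, Siglech and Sall1. Their 8 border macrophage markers summed to 22026 and 21196 CPM and their 10 microglia markers to 13647 and 13185 CPM. All 8 of the former and most of the latter were used to select these cells, so the sums describe the selection and do not test it. Spp1, the gene of osteopontin, was at 410 and 106 CPM in the Lyve1-rich cells, at 2740 and 1397 CPM on the microglia side and at 5282 and 3415 CPM over the whole macrophage side. This class was made after the data were seen. Values are given for it and, where they differ, for the whole macrophage side. The 4 T and NK cell markers had no UMI in any of these classes, and the 4 monocyte markers summed to at most 2.55 CPM and the 4 neutrophil markers to at most 1.49 CPM. Lyve1-rich cells had 0 and 45.7 CPM of the 4 mural cell markers and 146 and 205 CPM of the 3 lineage markers, whose part in the results on these cells was not tested.

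**Figure D1:**
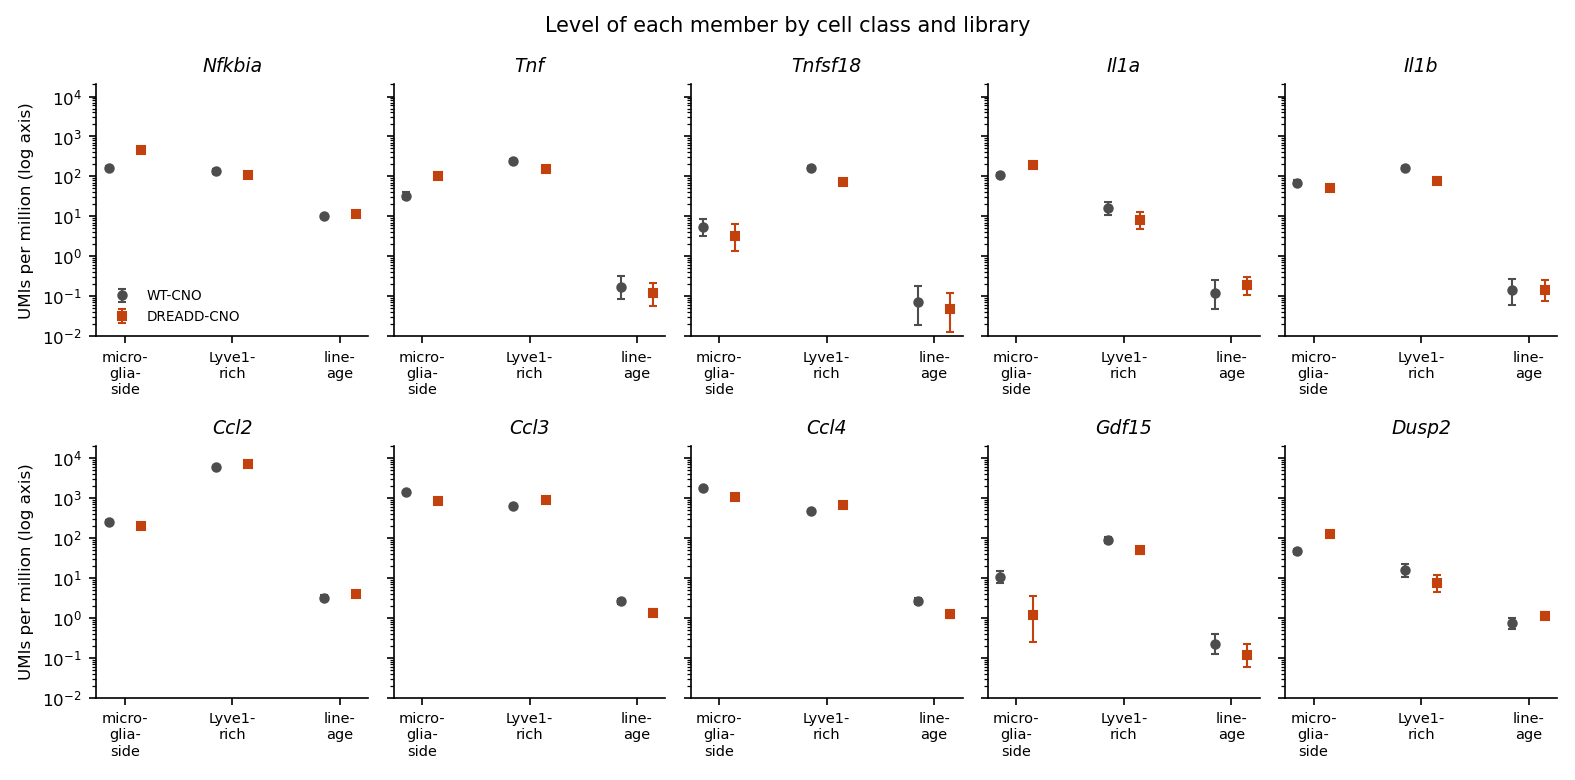
CPM (log axis) of each gene in microglia-side, Lyve1-rich and lineage cells, grey circles for WT-CNO and orange squares for DREADD-CNO, 1 library each; bars are 95% Poisson intervals of counting error. Lineage cells sit lowest for all 10 genes. Ccl2 and Tnfsf18 stand out in Lyve1-rich cells, and Nfkbia reaches 457 CPM in DREADD-CNO microglia-side cells.

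In microglia-side cells the libraries differed in both directions among the members. Nfkbia, Tnf, Il1a and Dusp2 were higher in DREADD-CNO, and the chemokines Ccl3 and Ccl4 were lower. This size rule asked for 20 CPM and 100 UMIs or more in the higher library, a ratio of at least 1.5 either way and an interval of the ratio that excluded 1. Of the 8 members that reached the minimum, 4 were higher and 2 lower, and of all 4964 genes that reached it 6.39% were called, 3.34% higher and 3.04% lower. The median log2 ratio of the 8 members was 0.26, beside 0.00021 for all these genes.

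WT-CNO microglia-side cells had 167 CPM (153 to 182) of Nfkbia and DREADD-CNO cells 457 CPM (431 to 485), from 523 and 1153 UMIs. DREADD-CNO was the higher library by a ratio of 2.74 (2.47 to 3.05), and the intervals of the levels did not overlap. A UMI of Nfkbia was found in 64.8% and 66.9% of cells at the depths sequenced. Cells with at least 5 Nfkbia UMIs per 10000 were 14 of 165 (8.48%, 4.72% to 13.8%) and 29 of 130 (22.3%, 15.5% to 30.4%). At an equal depth of 2414 UMIs per cell, which left out 8 and 6 shallower cells, 24.8% and 37.9% of cells held an Nfkbia UMI, beside 1.86% and 2.93% of lineage cells, whose median depths were 12924 and 19650 UMIs. The ratio passed the rule under all 11 alternatives tried, between 1.76 and 2.82. It was 2.73 in cells with Xist UMIs only and 1.76 in cells with Y-linked UMIs only.

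The macrophages gave no call for Nfkbia when all their cells were taken. Lyve1-rich cells had 133 CPM (116 to 151) and 107 CPM (94.3 to 120), a ratio of 0.805 (0.673 to 0.964). The whole macrophage side had 127 and 136 CPM, a ratio of 1.07 (0.949 to 1.21), but 1.57 (1.31 to 1.87) in its cells with Xist UMIs only, which was called, and 0.801 in those with Y-linked UMIs only. In WT-CNO the microglia side therefore stood little above the macrophages, and in DREADD-CNO well above them.

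Tnf encodes the cytokine TNF, which activates NF-kB through its receptors. On the microglia side it was at 32.5 CPM (26.5 to 39.5) and 99.96 CPM (88.0 to 113), a ratio of 3.07 (2.43 to 3.91), from 102 and 252 UMIs. A UMI was found in 23.6% and 31.5% of cells, and the 5 highest cells of each library held 54.9% and 58.7% of all its UMIs. Few cells therefore set this level, and without those 5 cells it was 15.1 and 43.8 CPM. The difference lay in cells with at least 2 UMIs of mitosis genes, at 20.6 and 143 CPM. In the 102 and 71 cells below that count Tnf was at 42.2 and 48.5 CPM, a ratio of 1.15 that no longer passed, nor did the ratio of 1.45 in cells with Xist UMIs only. All 6 mitosis genes were themselves higher in DREADD-CNO microglia-side cells, with a summed level of 396 and 907 CPM, and their part in the result was not tested.

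Lyve1-rich cells had more Tnf than microglia-side cells in both libraries, 241 CPM (219 to 265) and 156 CPM (141 to 172). Here WT-CNO was the higher library, with a ratio of 0.647 (0.563 to 0.745) that was called lower. The call was lost within each sex, at 0.790 in the 75 and 34 cells with Xist UMIs only and 0.899 in the 17 and 83 with Y-linked UMIs only. The whole macrophage side had 116 and 113 CPM, and its ratio of 0.966 (0.847 to 1.10) was not called. Without the need for a Lyve1 UMI the class held 153 and 198 cells and its ratio of 0.773 was not called either.

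Tnfsf18 encodes GITR ligand, a TNF family member that acts on lymphocytes. It was a gene of the Lyve1-rich cells, at 166 CPM (148 to 186) and 74.0 CPM (63.7 to 85.5), with a UMI in 40.5% and 33% of cells. DREADD-CNO was lower there by a ratio of 0.445 (0.368 to 0.537). In Lyve1-rich cells with Xist UMIs only the levels were 199 and 73.6 CPM, a ratio of 0.370, but in those with Y-linked UMIs only they were 44.3 and 91.8 CPM, the opposite direction, from 12 and 122 UMIs. Microglia-side cells had 17 and 8 UMIs, under the minimum, and 14 of the 17 UMIs came from 1 cell. At equal depth 24.1% and 17.7% of Lyve1-rich cells held a UMI, against 0 of 157 and 0 of 124 microglia-side cells. Over the whole macrophage side the ratio was 0.632, and 2.16 in its cells with Y-linked UMIs only.

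Il1a and Il1b encode the 2 agonists of the IL-1 receptor. Il1a was highest on the microglia side, at 107 CPM (95.7 to 119) and 197 CPM (180 to 215), a ratio of 1.84 (1.60 to 2.13). At equal depth the share of cells with a UMI was 12.1% and 26.6%. Its level was lower in the Lyve1-rich cells, at 16.3 and 8.09 CPM from 29 and 20 UMIs, under the minimum. On the whole macrophage side it was at 40.5 and 34.8 CPM, a ratio of 0.860 (0.680 to 1.09) that was not called. The call on the microglia side was lost within each sex, at 1.44 in cells with Xist UMIs only and 1.37 in cells with Y-linked UMIs only.

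Il1b went the other way. Lyve1-rich cells were highest, at 161 CPM (143 to 181) and 76.8 CPM (66.3 to 88.6), and DREADD-CNO was lower by a ratio of 0.476 (0.394 to 0.574). It was lower within each sex too, at 0.434 in cells with Xist UMIs only and 0.479 in cells with Y-linked UMIs only, and missed the call in cells with under 2 mitosis UMIs at 0.672. For the macrophage side as 1 class the ratio was 0.575 (0.492 to 0.670), also called lower. On the microglia side the levels were 69.6 CPM (60.6 to 79.4) and 51.2 CPM (42.7 to 60.8), a ratio of 0.736 (0.587 to 0.919) that was not called. Very few microglia-side cells made this signal: 10.9% and 9.23% carried a UMI, and the 5 highest cells held 84.4% and 73.6% of the UMIs. With 14 and 75 cells, those with Y-linked UMIs only gave a ratio of 10.7.

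Ccl2 encodes the chemokine that draws monocytes through the receptor CCR2. It was highest in Lyve1-rich cells, at 6019 CPM (5906 to 6134) and 7159 CPM (7054 to 7265), with a UMI in 81.7% and 80.1% of them. Microglia-side cells had 255 CPM (237 to 273) and 198 CPM (181 to 216). The ratio of the libraries was 1.19 (1.16 to 1.22) and 0.776 (0.693 to 0.869) in these 2 classes, neither of them called. By sex of the Lyve1-rich cells it was 1.11 with Xist UMIs only and 2.54 with Y-linked UMIs only. Over the whole macrophage side the ratio was 1.60 (1.56 to 1.64), which was called, with 126 of 236 and 176 of 249 of those cells Lyve1-rich.

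Ccl3 and Ccl4 encode related chemokines that attract immune cells, Ccl3 through CCR1 among other receptors. Microglia-side cells had 1387 CPM (1346 to 1429) and 846 CPM (811 to 883) of Ccl3, a ratio of 0.610 (0.579 to 0.643). They had 1734 CPM (1688 to 1781) and 1040 CPM (1001 to 1081) of Ccl4, a ratio of 0.600 (0.572 to 0.629). Both genes were found in fewer DREADD-CNO cells, at equal depth 59.2% and 40.3% for Ccl3 and 49.0% and 30.6% for Ccl4. The difference was not seen in cells with Xist UMIs only (113 and 19 cells), where Ccl3 was at 1426 and 1508 CPM and Ccl4 at 1816 and 1605 CPM. In cells with Y-linked UMIs only (14 and 75 cells) Ccl3 was at 1709 and 720 CPM and Ccl4 at 2063 and 983 CPM. The Ccl4 call was also lost with at most 5% mitochondrial UMIs, at a ratio of 0.683.

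Lyve1-rich cells gave no call for either chemokine when all their cells were taken. They had 629 and 896 CPM of Ccl3, a ratio of 1.43 (1.33 to 1.53), and 479 and 666 CPM of Ccl4, a ratio of 1.39 (1.28 to 1.51). Within each sex Ccl4 went opposite ways, at 517 and 269 CPM in Lyve1-rich cells with Xist UMIs only (ratio 0.521) and 325 and 999 CPM in those with Y-linked UMIs only (3.08). For Ccl3 those ratios were 1.04 and 1.68. Over the whole macrophage side Ccl3 was at 990.4 and 860 CPM, a ratio of 0.868 (0.829 to 0.909) that was not called, and Ccl4 at 1229 and 691 CPM, called lower at 0.562 (0.536 to 0.589). The value of Ccl4 in Lyve1-rich cells rested on the Lyve1 UMI asked for, since without it the ratio was 0.737. The difference between these ratios was not tested.

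Gdf15 encodes a stress-induced cytokine of the TGF-beta family. Its level was 89.9 CPM (76.5 to 105) and 48.5 CPM (40.2 to 58.0) in Lyve1-rich cells, called lower at a ratio of 0.540 (0.422 to 0.688). The difference was not seen within either sex: Lyve1-rich cells with Xist UMIs only had 44.2 and 44.9 CPM, and those with Y-linked UMIs only had 18.5 and 59.4 CPM, from 5 and 79 UMIs. Few cells carried the gene: 12.7% and 14.2% of Lyve1-rich cells carried a UMI, and 1 WT-CNO cell held 88 of the 160 UMIs of its class. Without the need for a Lyve1 UMI the ratio was 0.739 and not called. Over the whole macrophage side the ratio was 0.637, and 1.61 with at most 5% mitochondrial UMIs. Microglia-side cells had 33 and 3 UMIs, under the minimum, a ratio of 0.113 (0.0222 to 0.360).

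Dusp2 encodes a nuclear phosphatase that switches off MAP kinases. It was at 45.9 CPM (38.7 to 54.1) and 122 CPM (109 to 136) on the microglia side, a ratio of 2.65 (2.17 to 3.25), with a UMI in 24.8% and 33.1% of cells. At equal depth those shares were 8.28% and 14.5%. In cells with Xist UMIs only the ratio was 2.44, under the minimum of 100 UMIs. Lyve1-rich cells had 28 and 18 UMIs, or 15.7 and 7.28 CPM, and the whole macrophage side 65 and 98 UMIs, both under the minimum.

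**Figure D2:**
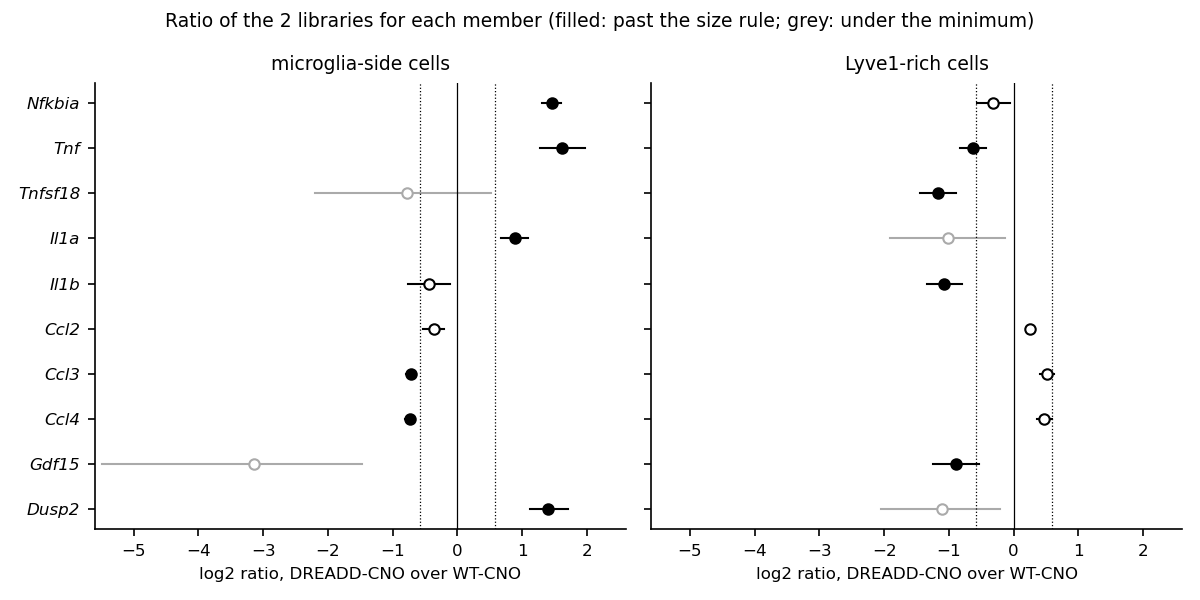
Log2 ratio of DREADD-CNO over WT-CNO for the 10 genes in microglia-side and Lyve1-rich cells; points are ratios, horizontal lines their 95% intervals, dotted lines a ratio of 1.5 either way, filled points pass the size rule and grey ones are under the minimum. On the microglia side 4 filled points lie to the right and 2 to the left, while the 4 filled points of the Lyve1-rich cells all lie to the left.

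Counted over the 10 genes, Lyve1-rich cells had 0 higher and 4 lower calls among 8 members that reached the minimum, beside 5.44% of all genes called, 4.19% higher and 1.25% lower. The whole macrophage side had 1 higher and 4 lower among 9, beside 6.11% of all genes, 4.26% higher and 1.85% lower. The median log2 ratio of the members was -0.47 in Lyve1-rich cells, beside 0.034 for all genes.

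Across single cells some members went together more than others. Ccl3 and Ccl4 formed the tightest pair on the microglia side, with a Pearson r of log levels across cells of 0.75 in both libraries. Nfkbia went with Dusp2 (0.56 and 0.46), with Il1a (0.54 and 0.44) and with Tnf (0.35 and 0.54). Pairs of these 4 genes with the 2 chemokines ranged from near 0 upward. Dusp2 and Ccl3 gave -0.01 and 0.02 and Nfkbia and Ccl3 0.12 and 0.16, while Nfkbia and Ccl4 gave 0.25 and 0.19, Tnf and Ccl4 0.24 and 0.23, and Il1a and Ccl4 0.32 and 0.12. The highest of these equalled the 0.32 of Tnf and Dusp2 in WT-CNO. Il1b, found in few cells, went with Il1a (0.49 and 0.36) and Dusp2 (0.45 and 0.34). With Nfkbia it gave 0.33 and 0.20, and with Tnf 0.14 and 0.33. These values describe 165 and 130 cells that share a library and differ in depth.

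**Figure D3:**
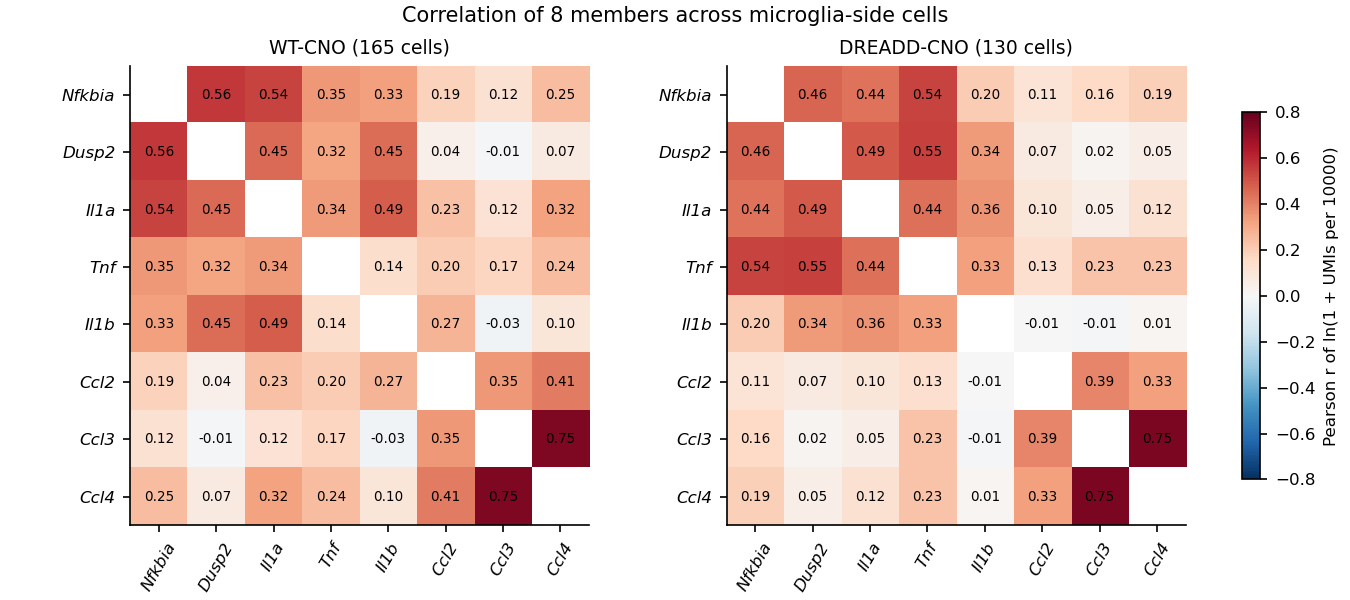
Pearson r of ln(1 + UMIs per 10000) between 8 of the genes across microglia-side cells, WT-CNO (165 cells) left and DREADD-CNO (130 cells) right, red for positive and blue for negative values. Nfkbia, Dusp2, Il1a and Tnf form a block at the upper left with values from 0.32 to 0.56, and Ccl3 with Ccl4 a pair at the lower right with 0.75 in both libraries. Il1b, next to the block, reaches 0.49 with Il1a and 0.45 with Dusp2 in WT-CNO.

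The cells with at least 5 Nfkbia UMIs per 10000 held more of most of these genes. In WT-CNO these 14 cells had 195 CPM of Tnf against 17.1 in the other 151, 520 against 67.8 of Il1a, 214 against 30 of Dusp2 and 431 against 35.3 of Il1b. Few of the 14 cells set the Tnf and Il1b levels. The highest held 21.8 Tnf UMIs per 10000 and the next 4.32. For Il1b the highest levels were 39.1, 14.7 and 3.58 per 10000. In DREADD-CNO the 29 cells with at least 5 Nfkbia UMIs per 10000 had 294 against 24.8 of Tnf, 445 against 101 of Il1a and 253 against 71.0 of Dusp2. Ccl4 was higher in them in both libraries, at 2572 against 1655 CPM and 1666 against 798 CPM. Ccl3 stood at 1352 against 1390 CPM in WT-CNO cells and at 1207 against 706 CPM in DREADD-CNO cells, and Ccl2 was 193 against 200 CPM in DREADD-CNO. Fos, an immediate early gene, was higher in the Nfkbia-high cells too, 3140 against 2214 and 3420 against 2244 CPM, and Hspa1a, a heat shock gene that dissociation is known to induce, was 44.2 against 6.29 and 11.4 against 2.75 CPM. The part of dissociation in the Nfkbia-high cells was not tested.

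**Figure D4:**
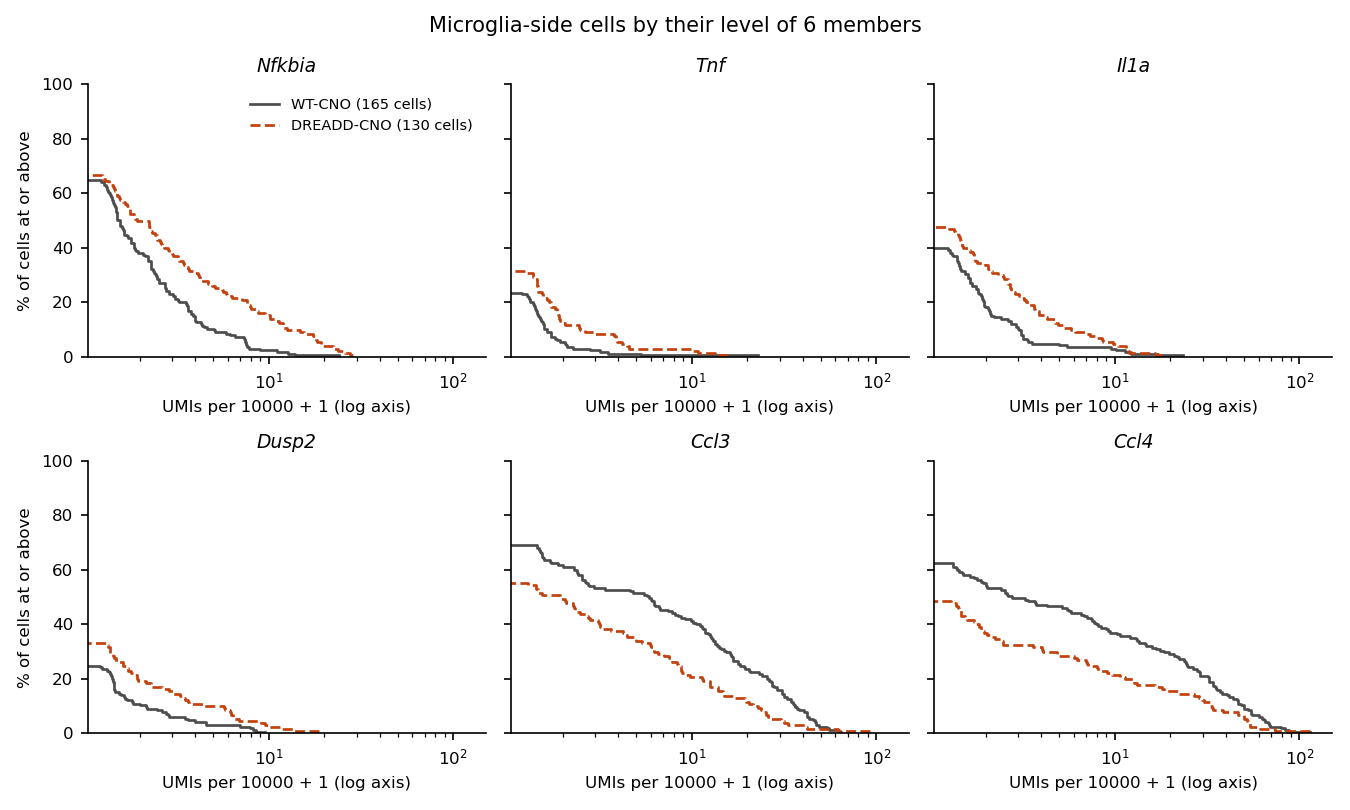
Percent of microglia-side cells at or above each level (UMIs per 10000 plus 1, log axis) for 6 genes, solid grey for WT-CNO (165 cells) and dashed orange for DREADD-CNO (130 cells). For Nfkbia the curves start together, at 64.8% and 66.9%, and part at higher levels, while for Ccl3 and Ccl4 the DREADD-CNO curve starts lower, at 55.4% and 48.5% against 69.1% and 62.4%.

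Among 9372 genes compared, those whose pattern over microglia-side cells was most like Nfkbia, by the lower of the 2 libraries' r, were Tnfaip3 (0.62), Birc3 (0.59) and Nfkbiz (0.56), all 3 known NF-kB targets that feed back on the pathway. For Tnf they were Pim1 (0.41), Gpr84 (0.39) and Nfkbiz (0.38), and for Il1a Nfkbiz (0.49), Kdm6b (0.47) and Junb (0.47). Dusp2 came with Nfkbia (0.46), Il1a (0.45) and Junb (0.40). Ccl3 was most like Ccl4 (0.75), then Csf1 (0.47) and Cd9 (0.47), and Ccl4 after Ccl3 most like Atf3 (0.47) and Cd84 (0.39). For Ccl2 they were Gm17268 (0.37), Ccl3 (0.35) and Ccl4 (0.33). Tnfsf18, Il1b and Gdf15 were in too few cells for this.

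Other genes of the pathway were read from lists. Of 10 NF-kB inhibitors and feedback genes, 6 reached the minimum in microglia-side cells, and 3 of them were called higher in DREADD-CNO and 0 lower. These were Tnfaip3, which encodes the ubiquitin-editing enzyme A20, at 96.0 and 175 CPM (ratio 1.82), Nfkbiz, an atypical IkB protein, at 161 and 276 CPM (1.72), and Birc3, a ubiquitin ligase of TNF receptor signalling, at 48.8 and 82.9 CPM (1.70). Zfp36, which encodes an RNA-binding protein that destabilises cytokine mRNA, was at 915 and 1018 CPM and not called. The list's median log2 ratio was 0.46.

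The NF-kB subunits, kinases and adaptors gave no call among the 9 of 14 genes that reached the minimum. Nfkb1, the gene of the p50 precursor, was at 199 and 250 CPM and Rel at 182 and 215 CPM. The largest ratios of this list, 1.41 for Relb and 1.38 for Rela, stayed under 1.5.

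Among receptors and processing genes, 1 of 7 was called higher and 0 lower. This was Nlrp3, the sensor of the inflammasome that matures IL-1β, at 66.7 and 180 CPM (ratio 2.69), while Pycard, its adaptor, was at 336 and 321 CPM. Among cytokines and chemokines that are no members, 1 of 7 was higher and 2 lower. Ccl12, another ligand of CCR2, was higher at 108 and 184 CPM (1.71), and Csf1, the growth factor of macrophages, was lower at 482 and 253 CPM (0.524), as was Osm at 75.0 and 49.6 CPM (0.661), which was named after its values were seen. Tgfb1 was at 251 and 238 CPM.

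Of the other phosphatases of the DUSP family 0 of 4 were called, with Dusp1 at 420 and 495 CPM. Of the stress response genes listed with Gdf15 0 of 3 were called, with Atf3 at 867 and 759 CPM. Of 12 immediate early genes 0 were higher and 1 lower, Nr4a1 at 126 and 75.8 CPM, and Fosb came nearest to a higher call at 540 and 803 CPM (1.49). Most leaned toward DREADD-CNO without a call: 10 of the 12 had a ratio above 1. The list's median log2 ratio was 0.23, and its summed level was 9861 and 11581 CPM. Of 2 heat shock genes that reached the minimum Dnajb1 was called higher, at 43.7 and 82.9 CPM (1.90), and Hsp90aa1 was at 281 and 305 CPM.

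The cell classes were compared within the libraries, where each class sum has a partner from the same pups. The model was edgeR's quasi-likelihood test on UMIs summed per library and class, with library as a block, and p-values adjusted by Benjamini-Hochberg over all genes. These p-values rest on 1 residual degree of freedom per gene and mostly on a spread shared over all genes. That shared spread counted as 13.3 degrees of freedom, and as 6.75 in the comparison with Lyve1-rich cells. The 2 libraries are also the 2 groups and not replicates of 1 condition. Since the members were listed with earlier results known, the values are a description. Microglia-side cells differed from macrophage-side cells in 2390 of 11892 genes, 20.1%, with 9.27% higher and 10.8% lower. Of the 10 members, 4 were higher on the microglia side, 5 lower and 1, Ccl3, not called. Nfkbia, Tnf, Il1b and Ccl4 did not pass with DESeq2 (DESeq2 adjusted p = 0.664, 0.819, 0.414 and 0.10), which called 615 genes.

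Against Lyve1-rich cells, where 29.1% of 11321 genes were called (14.7% higher and 14.4% lower on the microglia side), 9 of the 10 members passed. No alternative setting was run for this comparison. Lower on the microglia side were Ccl2, by a log2 fold change of -4.89 (edgeR adjusted p = 1.37e-06), Tnfsf18 (-4.82), Gdf15 (-3.59), Tnf (-1.70, edgeR adjusted p = 0.0208) and Il1b (-0.95). Higher on the microglia side were Il1a at 3.66 (edgeR adjusted p = 0.000188), Dusp2 (2.86), Nfkbia (1.22, edgeR adjusted p = 0.0340) and Ccl4 (1.22). Ccl3 did not pass, at 0.50 (edgeR adjusted p = 0.163). For some members the libraries gave unequal values. The log2 ratio of Nfkbia was 0.33 within WT-CNO against 2.10 within DREADD-CNO, and that of Dusp2 1.55 against 4.06. That of Tnf was -2.89 against -0.64. Ccl2 gave -4.56 and -5.18. Over the whole macrophage side Tnf was also lower on the microglia side, by -0.98 (edgeR adjusted p = 0.0157). That log2 ratio was -1.84 within WT-CNO but -0.17 within DREADD-CNO, and it did not pass with DESeq2 (DESeq2 adjusted p = 0.819).

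**Figure D5:**
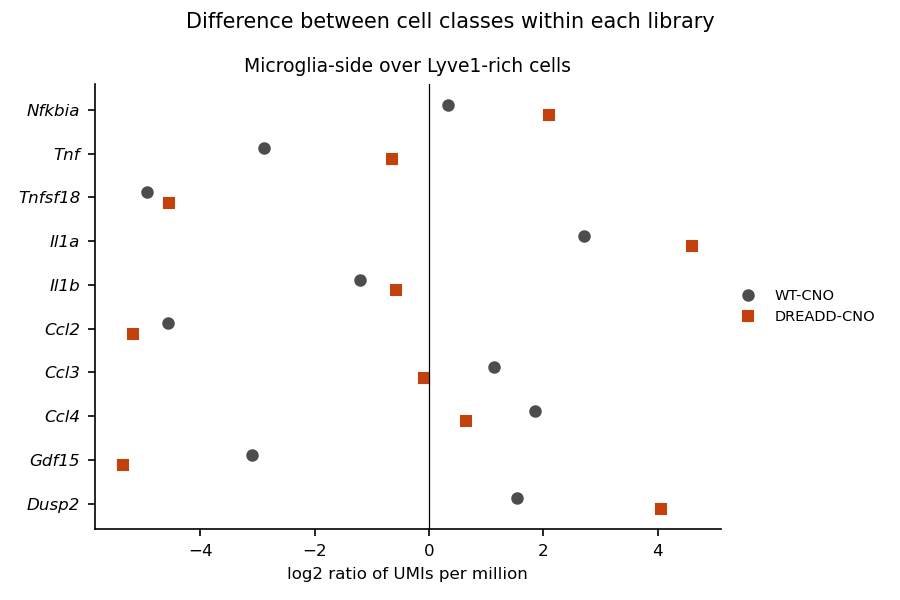
Log2 ratio of CPM in microglia-side cells over Lyve1-rich cells, grey circles for WT-CNO and orange squares for DREADD-CNO. Ccl2, Tnfsf18 and Gdf15 lie far to the left of 0 in both libraries and Il1a to the right, and Nfkbia lies further right in DREADD-CNO, at 2.10 against 0.33.

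The listed genes of the pathway differed between the same classes. Against Lyve1-rich cells, 2 of 13 other cytokines and chemokines were higher on the microglia side and 7 lower, with Ccl7 at -7.93 and Ccl24 at -6.46 on the log2 scale. Both are chemokines that Lyve1-rich cells held in quantity, Ccl7 at 4025 and 3907 CPM and Ccl24 at 1540 and 1457 CPM. The 2 that were higher were Csf1 at 4.53 and Ccl6 at 1.41. Among receptors and processing genes 2 of 9 were higher and 3 lower, with Ccr1, a receptor of Ccl3, at -5.07. Among NF-kB inhibitors and feedback genes 1 of 10 was higher and 1 lower, Tnfaip3 at 1.89 and Nfkbid at -0.90. Among subunits, kinases and adaptors 1 of 13 was higher and 2 lower, with the Toll-like receptor genes Tlr4 at -1.20 and Tlr2 at -0.89.

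Lineage cells, the 3315 and 3872 barcodes with oligodendrocyte-lineage markers and little C1q, held little of any member. None of the 10 reached the minimum of the size rule, which 7668 genes did, with 1.85% called, 0.235% higher and 1.62% lower. Nfkbia was at 10.1 CPM (9.28 to 10.9) and 11.8 CPM (11 to 12.5), with a UMI in 14.1% and 20.4% of cells. By stage it was at 9.81 and 13.6 CPM in precursor-side cells, 12 and 11.3 in committed-side cells and 6.33 and 8.32 in oligodendrocyte-side cells.

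Free RNA from macrophages can put such UMIs into lineage barcodes, so each member was set against C1q, which lineage cells should lack. C1q also defined both the lineage cells and the C1q-high cells, and the C1q-high cells were the only source counted. RNA from other cells, such as the barcodes with endothelial markers described below, was not covered. The quotient therefore cannot show which cells made the UMIs, and their source was not tested. Per C1q UMI, lineage cells held 56.5 (50.9 to 62.6) and 37.0 (34.2 to 40.0) times as many Nfkbia UMIs as the C1q-high cells, and 20.4 (14.3 to 28.5) and 13.6 (10.8 to 17.0) times as many Dusp2 UMIs. Nfkbia was at 9.51 and 12 CPM in lineage cells without any C1q UMI. Dusp2 was at 0.732 and 1.12 CPM, and at 0.910 and 1.96 CPM in the committed-side cells. Gdf15 gave 4.14 (2.18 to 7.19) and 4.15 (1.95 to 7.82) from 13 and 10 UMIs.

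The quotient was lower for the remaining members, all of them cytokines or chemokines. It was 1.51 (1.3 to 1.74) and 1.23 (1.10 to 1.37) for Ccl2, 1.76 (1.49 to 2.07) and 1.36 (1.12 to 1.64) for Ccl3 and 1.48 (1.25 to 1.73) and 1.3 (1.06 to 1.58) for Ccl4, so that these intervals lay above 1 in both libraries. Tnf had 10 UMIs in each library among all lineage cells, Il1a 7 and 16, Il1b 8 and 12 and Tnfsf18 4 and 4. For Tnf the quotient was 1.78 (0.849 to 3.30) and 0.912 (0.435 to 1.69), and the interval contained 1 in both libraries. For Il1b it was 1.20 (0.515 to 2.38) and 2.05 (1.05 to 3.63). The source of these UMIs was not tested.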

How the data were processed

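The deposited values were counts: whole UMI counts per gene and barcode, deposited by the authors, of Single Cell 3′ v3 libraries, and not normalised. They came from Cell Ranger 7.1.0, per the file headers and the submitters' processing notes. The genome build is not given in the sources used here. All 10 members and the gene lists were chosen with earlier results of these data known.

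Barcodes with at least 500 genes and at most 10% mitochondrial UMIs were kept (4272 and 4986). Lineage cells had under 20 C1q UMIs and at least 5 UMIs of Olig1, Olig2 and Sox10 per 10000. They also had under 20 per 10000 of each other cell type's markers. The 28 and 29 barcodes high in both C1q and lineage markers were left out, except from the C1q-high source of the free RNA quotient. UMIs were summed per class and library and divided by the class total. Levels have exact Poisson intervals, shares Clopper-Pearson intervals, and ratios exact conditional intervals, at 95%. Named list genes were the 2 most abundant and the 2 with the largest difference in each list. Ddit3, with 2 rows, was left out of the comparison of the libraries. Scrublet called 0 and 5 barcodes by its own threshold, which did not work, so doublets were left in apart from marker-mixed barcodes. Removal of the 168 and 206 highest scores was an alternative.

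Classes were compared with edgeR 4.0.16 (TMM, filter on low counts, library block) in R 4.3.3 and, as an alternative, DESeq2 1.42.0; both classes of a library come from the same pups, which is the pairing. Python 3.11.15, numpy 2.4.6, scipy 1.17.1, pandas 2.3.3 and scanpy 1.11.5 were used. The size rule and the edgeR fit were tested on simulated data. Alternatives covered the C1q minimum, filters, doublets, scaling, minimums, sex of cells, the library block and, chosen after seeing the data, the Lyve1-rich class, with and without the need for a Lyve1 UMI, its split by sex of cells, and the mitosis split. The rest of the macrophage side and some genes of the lists are not reported here.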

Additional observations from a re-analysis of the deposited data

Results flagged for a closer look

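Ccl2 differed between the libraries in opposite directions in the 2 classes of the original gate. Its ratio of DREADD-CNO over WT-CNO was 0.776 in microglia-side cells, which was not called, and 1.60 in macrophage-side cells, which was called. Over 11 alternatives the microglia-side ratio ran from 0.759 to 1.04, so its direction was not kept in all of them. The difference between the ratios of the 2 classes was not tested. Within the macrophage side the ratio was 1.19 in Lyve1-rich cells, which were 126 of 236 and 176 of 249.

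Barcodes outside the classes described also carried Nfkbia and Dusp2. In the 485 such barcodes of WT-CNO Nfkbia was at 7.60 CPM and in the 675 of DREADD-CNO at 98.3 CPM, a ratio of 12.9 (9.18 to 18.8). Dusp2 was at 0.894 and 13.6 CPM, a ratio of 15.2 (5.79 to 56.6). Barcodes with endothelial markers were 3 of the 485 and 83 of the 675. In those Nfkbia was at 144 CPM (7 UMIs) and 302 CPM and Dusp2 at 0 and 48.4 CPM. In the remaining 482 and 592 barcodes Nfkbia was at 6.10 and 21.3 CPM and Dusp2 at 0.904 and 0.442 CPM.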

How the results depend on the processing

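No paired analysis was possible for the comparison of the libraries because each group is 1 library. For the classes, leaving the library block (the pairing of classes within a library) out of the model lowered the genes called from 2390 to 1266, and Nfkbia, Tnf, Il1b and Ccl4 no longer passed (adjusted p = 0.121, 0.261, 0.236 and 0.433). DESeq2 called 615, with the same 4 members not past, and a C1q minimum of 10 or 50 gave 1482 or 1341, where Nfkbia (adjusted p = 0.0955 and 0.118), Tnf (0.143 and 0.193) and Ccl4 (0.0591 and 0.0573) no longer passed, nor Il1b at 50 (0.0559). Against Lyve1-rich cells alone 3294 were called. Ccl2, Dusp2, Gdf15, Il1a and Tnfsf18 passed under all 8 settings of the microglia-side against macrophage-side test. With 1 library left out, a value with no test, Ccl3 ranged from -0.023 (without WT-CNO) to 0.49 (without DREADD-CNO).

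Genes past the size rule on the microglia side went from 317 to 836 with a minimum of 10 CPM and 30 UMIs and to 155 in cells with under 2 mitosis UMIs. On the macrophage side they went from 376 to 242 without high Scrublet scores, to 821 with the lower minimum and to 222 in Lyve1-rich cells (276 without the need for a Lyve1 UMI). In lineage cells they went from 142 to 52 with at most 5% mitochondrial UMIs, to 241 with the lower minimum, and to 90 and 375 in cells with Xist or Y-linked UMIs only. Log2 ratios that had passed the size rule and changed sign were Ccl3 on the microglia side (0.081, Xist only) and, on the macrophage side, Gdf15 (0.68 with at most 5% mitochondrial UMIs, 0.24 Xist only), Tnfsf18 (1.11 Y-linked only) and Ccl4 (0.47 Lyve1-rich, but -0.44 without the need for a Lyve1 UMI). In Lyve1-rich cells they were Gdf15 (0.021 Xist only, 1.69 Y-linked only) and Tnfsf18 (1.05 Y-linked only). Among ratios not called, 3 of 4 members on the microglia side, 5 of 5 on the macrophage side, 3 of 6 in Lyve1-rich cells and 5 of 10 in lineage cells changed sign under at least 1 alternative. Apart from the constructions named, the cause was not tested. With 1 library per group, no depth can show variation between pups apart from the sex of the cells, and members under 100 UMIs in a class gave no call.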
